A study of Mus musculus with 9 samples.

Results

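Nodal and BMP signalling was followed through 9 genes, *Nodal*, *Lefty1*, *Lefty2*, *Bmp4*, *Id1*, *Id2*, *Id3*, *Smad6*, and *Smad7*, picked by symbol from the 25239 genes of the count tables. All 9 had enough reads for a test, as did 14125 genes in all. RNA-seq was performed on mouse E14 embryonic stem cells (ESCs; strain given as 12910la) grown in serum with leukemia inhibitory factor. The control was the unmutated E14 line (Rbbp4+/+), and the mutants were the lines Rbbp4Ins/Ins, with an in-frame insertion on both alleles of *Rbbp4*, and Rbbp4Ins/Del, with that insertion on a single allele and an in-frame deletion on the other. Each mutant line is a single CRISPR-Cas9 clone, so that the mutation and the history of the clone cannot be told apart. Each line had 3 libraries, which nothing states to be separate cultures, so p-values measure only the spread between these libraries.

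Nodal and the BMPs are secreted ligands of the TGF-beta family. Nodal signals with the co-receptor CRIPTO through activin receptors and SMAD2 and SMAD3, and it turns on its own gene and those of its secreted inhibitors LEFTY1 and LEFTY2, which closes a feedback loop. BMP4 signals through SMAD1, SMAD5, and SMAD9 and turns on the *Id* genes, whose products bind and block basic helix-loop-helix factors. In serum-grown mouse ESCs the *Id* genes are known as BMP targets that hold back neural differentiation. *Smad6* and *Smad7* encode inhibitory SMADs that feed back on signalling of the TGF-beta family.

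The libraries held 15838064 to 21366868 reads in genes. Normalized counts are counts scaled by edgeR's TMM method to a common library size. *Rbbp4* itself had means of 10005 normalized counts in the control, 5604 in Ins/Ins, and 10359 in Ins/Del. All 8 ESC markers were well counted, with at least 1994 reads in every library. Their summed level was 78606 to 83027 normalized counts in the control, 106736 to 108675 in Ins/Ins, and 104427 to 107700 in Ins/Del. Markers of other cells moved with the lines too. The summed level of 6 trophectoderm markers was 4650.0 to 5134 in the control, 2332 to 2479.7 in Ins/Ins, and 1506.5 to 1599.8 in Ins/Del. For 6 primed epiblast and primitive streak markers it was 1771 to 1963, 762 to 803, and 589.8 to 602. For 4 neural markers it was 3007 to 3058, 1324 to 1454, and 1643 to 1710.3. For 6 fibroblast markers it was 568 to 669, 253 to 283, and 341 to 362, with *Lum* at no more than 1 read in any library. These sums hold markers that moved in opposite directions. Of the 4 fibroblast markers tested, 3 were lower in each mutant and 1 was higher. *Col1a1* had means of 287, 17.0, and 24.4 normalized counts in the control, Ins/Ins, and Ins/Del, and *Col3a1* of 31.3, 0.705, and 0.982, whereas *Thy1* had 45.7, 246, and 312. *Col1a2* had log2 fold changes of -5.28 in Ins/Ins and -4.76 in Ins/Del. Of the 4 neural markers, 2 were lower in each mutant and 1 was higher, with *Pax6* at 678, 73.6, and 30.1, *Nes* at 1744, 230.3, and 205, and *Tubb3* at 472, 967, and 1294.5. Among 5 tested trophectoderm markers, 3 were lower and 1 higher in Ins/Ins, and 5 were lower in Ins/Del. Among 5 tested primed epiblast and streak markers, 3 were lower and 1 higher in each mutant. *Otx2* was the largest part of their sum in each line, with means of 1375, 428.5, and 301 normalized counts. It lies 2.27 Mb from *Bmp4*, within the lower stretch of chromosome 14 described below. The summed level of 6 primitive endoderm markers was 119 to 127, 117 to 160.2, and 205 to 239. Of the 5 tested, Ins/Ins had 1 higher and 1 lower and Ins/Del had 4 higher and 1 lower. In bulk RNA, fewer cells of a type and less RNA per cell cannot be told apart, and the part of these cells in the values below was not tested.

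The question of each comparison was how transcript levels differed between the lines. In Ins/Ins, *Nodal* and *Lefty2* were higher than in the control, and *Lefty1*, *Bmp4*, *Id1*, *Id2*, and *Id3* were lower. In Ins/Del, *Nodal*, *Lefty2*, and *Id1* were higher and *Lefty1* was lower. Against Ins/Ins, the Ins/Del line had more *Nodal*, *Bmp4*, *Id1*, and *Id2* and less *Lefty1*. *Smad6* and *Smad7* did not pass the test in any comparison. Calls were made by the quasi-likelihood test of edgeR, with p-values adjusted by Benjamini-Hochberg over all tested genes and a limit of 0.01, and every adjusted p below is from that test.

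These calls stand against a large background. In Ins/Ins 7 of the 9 genes were called, where 58.4% of all tested genes were, and in Ins/Del 4 of 9, where 62.5% were. A call in either mutant alone therefore does not set these genes apart. Between the mutant lines, 5 of the 9 were called, where 10.8% of all tested genes were. By direction, 4 of the 9 were higher in Ins/Del than in Ins/Ins and 1 was lower, beside 6.17% and 4.64% of all tested genes. Libraries without overlap were common as well. In Ins/Ins 2 of the 9 genes lay wholly above and 5 wholly below the control, beside 34.9% and 34.2% of all tested genes (69.1% together), and in Ins/Del 3 and 2 did, beside 35.9% and 36.9% (72.8% together). Between the mutants 5 lay wholly higher in Ins/Del and 1 wholly lower, beside 17.4% and 16.7% (34.1% together). The 9 genes were chosen with earlier results of these data known. Their median log2 fold change was -0.29 in Ins/Ins, 0.05 in Ins/Del, and 0.26 between the mutants, beside 0.004, -0.011, and -0.004 over all tested genes.

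**Figure D1:**
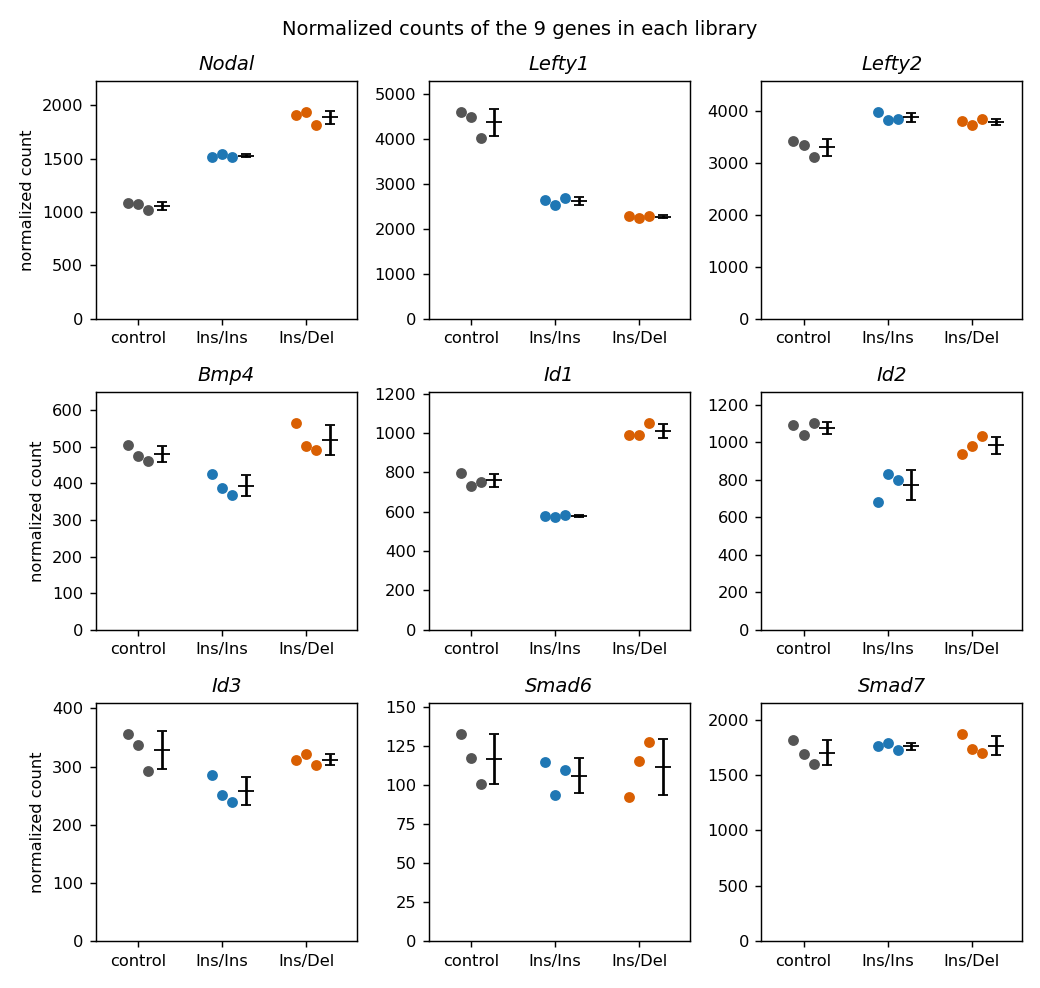
Normalized counts (y axis, from 0) of the 9 genes in the 3 libraries of the control, Ins/Ins, and Ins/Del lines (x axis); each point is a library and the bar beside it is the mean with SD. *Nodal* climbs from 1058 to 1526 to 1886 over the lines, *Lefty1* descends from 4377 to 2621 to 2275, and *Id1* is lowest in Ins/Ins (577) and highest in Ins/Del (1009.9).

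Per length, the genes spanned a wide range. In the control, *Lefty1* had the highest level, 2489.9 ± 172 normalized counts per kb of exon (SD, n = 3), followed by *Lefty2* at 1266 ± 60.8, *Id1* at 655 ± 28.5, *Nodal* at 504.8 ± 16.6, *Id2* at 442.5 ± 13.5, *Smad7* at 376 ± 24.2, *Bmp4* at 214 ± 9.79, *Id3* at 183 ± 18.2, and *Smad6* at 36.5 ± 4.97. The order at the top changed in the mutants. In Ins/Ins, *Lefty1* (1491 ± 47.0 per kb) and *Lefty2* (1489 ± 33.4) did not differ beyond their spread. In Ins/Del, *Lefty2* (1455 ± 23.4 per kb) stood above *Lefty1* (1294 ± 15.6). *Nodal* moved above *Id1* in both mutants, with 728 ± 6.09 against 497 ± 4.54 per kb in Ins/Ins, and with 900.5 ± 29.8 against 871 ± 29.5 in Ins/Del, where the levels overlapped. *Id2* (404 ± 19.0 per kb) and *Smad7* (390.5 ± 19.9) were neighbours in Ins/Del that did not differ beyond their spread either.

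*Nodal* (mm10 chromosome 10, 61417972 to 61425338, plus strand) encodes the ligand itself. It reached normalized counts of 1081, 1074, and 1018 in the control, 1517, 1540.3, and 1519 in Ins/Ins, and 1907, 1936, and 1817 in Ins/Del. The lines formed 3 separate steps with no overlap. On the log2 scale the change was 0.53 in Ins/Ins (SE 0.043, adjusted p = 7.9e-14) and 0.83 in Ins/Del (SE 0.042, adjusted p = 2.4e-20), a rise of 44.2% and 78.4%. Ins/Del was above Ins/Ins by a further 0.31 (SE 0.040, adjusted p = 2.2e-07).

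*Lefty1* and *Lefty2* are neighbours on chromosome 1, both on the plus strand. *Lefty2* lies from 180893108 to 180899103 and *Lefty1* from 180935022 to 180938400, with 35919 bp between them. Both encode secreted inhibitors of Nodal and are duplicates of each other, so whether their reads can be told apart bears on every value below. The coding sequences of 1 transcript of each gene in GENCODE M21 were each 1104 bases and were identical at 1014 of them (91.8%), with 90 substitutions, no gap, and a longest identical run of 140 bases. The 150 coding bases in which they differed most, bases 63 to 212 of the coding sequence, lie in exon 1 of each gene, at chr1:180935172-180935321 for *Lefty1* and chr1:180893246-180893395 for *Lefty2*, on the plus strand of mm10. They are shown 5′ to 3′ because reads over them can be assigned to a single gene, with the 40 bases that differ in capitals.
Lefty1: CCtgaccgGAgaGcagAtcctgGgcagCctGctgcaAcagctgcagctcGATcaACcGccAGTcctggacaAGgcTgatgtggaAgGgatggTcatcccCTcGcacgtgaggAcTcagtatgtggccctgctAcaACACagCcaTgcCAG
Lefty2: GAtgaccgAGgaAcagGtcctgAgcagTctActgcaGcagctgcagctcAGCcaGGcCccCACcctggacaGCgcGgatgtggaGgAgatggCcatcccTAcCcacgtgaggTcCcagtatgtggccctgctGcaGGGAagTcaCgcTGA
Over all annotated transcripts, 17.9% of the 50-base windows of *Lefty1* and 12% of those of *Lefty2* occurred in another gene, where 50 bases is the length of 1 read of a pair. The counts of each gene therefore rest mostly on sequence that the other does not hold, and how the remaining reads were assigned is not given in the sources used here.

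*Lefty1* reached normalized counts of 4604, 4495, and 4033 in the control, 2649.9, 2528, and 2685 in Ins/Ins, and 2288, 2244, and 2294 in Ins/Del. Every control library lay above every mutant library, and every Ins/Ins library above every Ins/Del library. Its log2 fold change was -0.74 in Ins/Ins (SE 0.038, adjusted p = 6.2e-20) and -0.95 in Ins/Del (SE 0.038, adjusted p = 2.9e-23). Between the mutants it was -0.21 (SE 0.040, adjusted p = 2.2e-04). The mean of *Lefty1* changed by -40.1% in Ins/Ins and -48.0% in Ins/Del, the largest loss among the 9 genes in each line.

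*Lefty2* went the other way. It reached normalized counts of 3431, 3357, and 3127 in the control, 3989, 3829, and 3848 in Ins/Ins, and 3821, 3729, and 3845 in Ins/Del. All mutant libraries lay above all control libraries, while the mutants overlapped. Its log2 fold change was 0.23 in Ins/Ins (SE 0.034, adjusted p = 1.3e-07) and 0.20 in Ins/Del (SE 0.034, adjusted p = 2.5e-06). The difference between the mutants was -0.04, with a 95% interval of -0.10 to 0.03.

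The ratio of *Lefty1* to *Lefty2* counts put both movements together. It was 1.34, 1.34, and 1.29 in the control libraries, 0.664, 0.660, and 0.698 in Ins/Ins, and 0.599, 0.602, and 0.597 in Ins/Del. The mean ratio was 1.32 ± 0.0292 (SD, n = 3), 0.674 ± 0.0206, and 0.599 ± 0.00251. On the log2 scale it differed from the control by -0.97 in Ins/Ins and -1.14 in Ins/Del. An exact two-sided permutation test gave p = 0.1 for each comparison of lines, the smallest p that 3 against 3 libraries allow. Counted as a single gene, the *Lefty* pair fell in both mutants, with a log2 fold change of -0.24 in Ins/Ins (adjusted p = 3.8e-08) and -0.34 in Ins/Del (adjusted p = 8.0e-12). The 3 genes of the Nodal loop that were followed here therefore did not move in step, with *Nodal* and *Lefty2* higher and *Lefty1* lower in both mutants.

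*Bmp4* (chromosome 14, 46383520 to 46390669, minus strand) encodes the BMP ligand among the 9 genes. It reached normalized counts of 505, 476, and 462 in the control, 424, 388, and 367 in Ins/Ins, and 564, 501, and 491 in Ins/Del. Ins/Ins lay below the control in every library, and Ins/Del overlapped the control. Its log2 fold change was -0.29 in Ins/Ins (SE 0.071, adjusted p = 4.9e-04) and 0.11 in Ins/Del (SE 0.068, adjusted p = 0.163, 95% interval -0.03 to 0.24). Between the mutants it was 0.39 (SE 0.070, adjusted p = 6.5e-05). Exons of *Gm15217* overlap 3.96% of the exonic length of *Bmp4* on the opposite strand, and *Gm15217* had at most 2 reads in a library.

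*Bmp4* lies near the start of a stretch of chromosome 14 in which most genes were lower in both mutants. Of the 5 tested genes on either side of it, 8 of 10 were called lower in Ins/Ins and 8 of 10 in Ins/Del, and the median log2 fold change of these neighbours was -0.98 in each line. The called neighbours ranged from *Gnpnat1*, with log2 fold changes of -0.86 in Ins/Ins and -0.91 in Ins/Del, and *Fermt2* (-0.91 and -0.86) through *Gmfb* (-0.98 and -0.94), *Styx* (-0.98 and -1.01), *Cnih1* (-1.42 and -1.49), *Cgrrf1* (-1.47 and -1.92), and *Cdkn3* (-1.78 and -1.86) to *Samd4* (-5.21 and -5.74). The exceptions were *Ddhd1*, at -0.20 in each line and not called, and the pseudogene *Ubb-ps*, the closest tested gene at 299 kb, at 0.27 (not called) and 0.39 (called higher). The values of *Bmp4*, -0.29 and 0.11, lay above those of the 8 called neighbours in both lines, below that of *Ubb-ps* in both, and below that of *Ddhd1* in Ins/Ins and above it in Ins/Del. Between the mutants the neighbours had a median of -0.04, with values between -0.52 and 0.12, and *Bmp4* stood at 0.39. Over the 255 tested genes in the 41 Mb on the higher-coordinate side of *Bmp4*, the median was -0.91 in Ins/Ins and -0.94 in Ins/Del, and 217 and 236 of them had a lower value than *Bmp4*. In bins of 5 Mb, the median between 40 and 45 Mb was 0.13 in Ins/Ins and 0.38 in Ins/Del over 5 genes. Between 45 and 50 Mb, the bin of *Bmp4*, it was -0.86 and -0.87 over 31 genes, and the bins up to 80 Mb held medians between -1.25 and -0.72 in Ins/Ins and between -1.30 and -0.67 in Ins/Del. The part of this region in the level of *Bmp4* was not tested.

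**Figure D2:**
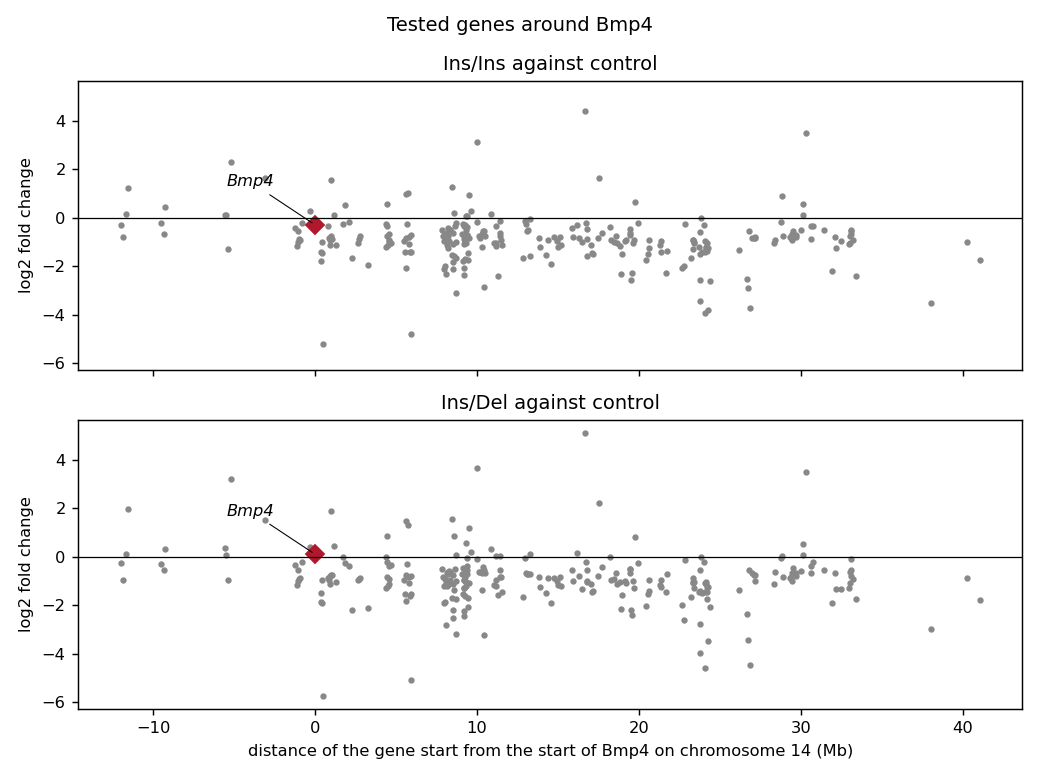
Log2 fold change (y axis) of tested genes in the part of chromosome 14 around *Bmp4*. The x axis is the distance of the start of each gene from that of *Bmp4* in Mb. The panels show Ins/Ins (upper) and Ins/Del (lower) against the control. Grey points are genes and the red diamond is *Bmp4*. Tested genes farther out on either side are not drawn, so the figure does not show this part against the whole chromosome. Most points on the higher-coordinate side lie below 0, with medians of -0.91 and -0.94, while *Bmp4* lies at -0.29 and 0.11.

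The *Id* genes encode inhibitors of DNA binding and are read as BMP targets. *Id1* (chromosome 2, 152736251 to 152737410, plus strand) reached normalized counts of 796, 731, and 752 in the control, 576, 572, and 582 in Ins/Ins, and 989.6, 991, and 1049 in Ins/Del. Ins/Ins lay below and Ins/Del above every control library. The log2 fold change was -0.40 in Ins/Ins (SE 0.055, adjusted p = 4.7e-08), 0.41 in Ins/Del (SE 0.051, adjusted p = 5.6e-09), and 0.81 between the mutants (SE 0.053, adjusted p = 1.8e-14). A call in opposite directions in the 2 mutants was rare, with 12 of the 14125 tested genes (0.085%). Besides *Id1* these were *Col4a1*, *Dag1*, *Fxyd6*, *G3bp2*, *Gpx4*, *Impact*, *Isyna1*, *Mest*, *Rcn1*, *Tfap2c*, and *Tnpo1*, named after their values were seen.

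*Id2* (chromosome 12, 25093799 to 25097140, minus strand) reached normalized counts of 1092, 1041, and 1103 in the control, 683, 833, and 800.3 in Ins/Ins, and 939, 982, and 1032 in Ins/Del. Ins/Ins was the lowest line and Ins/Del lay between it and the control, without overlap. Its log2 fold change was -0.49 in Ins/Ins (SE 0.057, adjusted p = 8.6e-10) and -0.13 in Ins/Del (SE 0.055, adjusted p = 0.0284), which missed the threshold. Between the mutants it was 0.36 (SE 0.058, adjusted p = 1.3e-05).

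*Id3* (chromosome 4, 136143497 to 136145755, plus strand) reached normalized counts of 356, 337, and 292 in the control, 286, 252, and 239 in Ins/Ins, and 312, 322, and 302 in Ins/Del. The Ins/Ins libraries were below all others, although the highest of them and the lowest control library lay close together. The log2 fold change was -0.34 in Ins/Ins (SE 0.085, adjusted p = 5.9e-04), and without control replicate 1 this call was lost (-0.28, adjusted p = 0.0113). In Ins/Del it was -0.08 (SE 0.083, adjusted p = 0.407, 95% interval -0.25 to 0.09), and between the mutants 0.26 (SE 0.086, adjusted p = 0.0271), which missed the threshold. *Bmp4* and the 3 *Id* genes were thus all called lower in Ins/Ins, and of these 4 only *Id1* was called in Ins/Del, where it was higher.

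A stretch upstream of the RefSeq start of *Id2*, from the RefSeq promoter table on GRCm38.p6, is shown because it holds the GGCGCC match described next, in capitals. It lies at chr12:25096254-25096342 on the minus strand, within intron 1 of the longer transcript annotated in GENCODE M21, and ends where an exon of that transcript begins.
Id2: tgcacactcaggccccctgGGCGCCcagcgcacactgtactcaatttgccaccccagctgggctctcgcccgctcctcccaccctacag
Promoter windows of 300 bases, 250 before and 50 after the RefSeq start, were found for *Nodal*, *Bmp4*, *Id2*, *Id3*, and *Smad6*, and both strands were searched. GGCGCC, a GC-rich SMAD site, occurred once in *Id2* and in 11.9% of all 32851 windows. The palindromic SMAD box GTCTAGAC, which contains the short box GTCT, occurred once in *Smad6* and in 0.213% of windows. The FOXH1 motif AATNCACA occurred in none of the 5 and in 3.6% of windows, and GTCT occurred in all 5 and in 88% of windows. A match describes the letters of the window and does not show that a factor binds there. The windows of *Id2* and *Id3* also overlap exons that GENCODE annotates in these genes.

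*Smad6* and *Smad7* encode the inhibitory SMADs. *Smad6* (chromosome 9, 63953076 to 64022059, minus strand) was the least abundant of the 9 genes, at normalized counts of 133, 117, and 101 in the control, 115, 94, and 109.9 in Ins/Ins, and 92, 115, and 127 in Ins/Del. All 3 lines overlapped. The log2 fold change was -0.14 in Ins/Ins (95% interval -0.41 to 0.13) and -0.08 in Ins/Del (95% interval -0.35 to 0.19), so that changes within these ranges were not excluded. *Smad7* (chromosome 18, 75367529 to 75395935, plus strand) reached normalized counts of 1816, 1692, and 1598 in the control, 1764, 1789.7, and 1724 in Ins/Ins, and 1867, 1734, and 1695 in Ins/Del. These lines overlapped as well, at a depth that gave narrower intervals. The log2 fold change of *Smad7* was 0.04 in Ins/Ins (95% interval -0.04 to 0.13), 0.05 in Ins/Del (95% interval -0.04 to 0.14), and 0.01 between the mutants (95% interval -0.08 to 0.09).

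**Figure D3:**
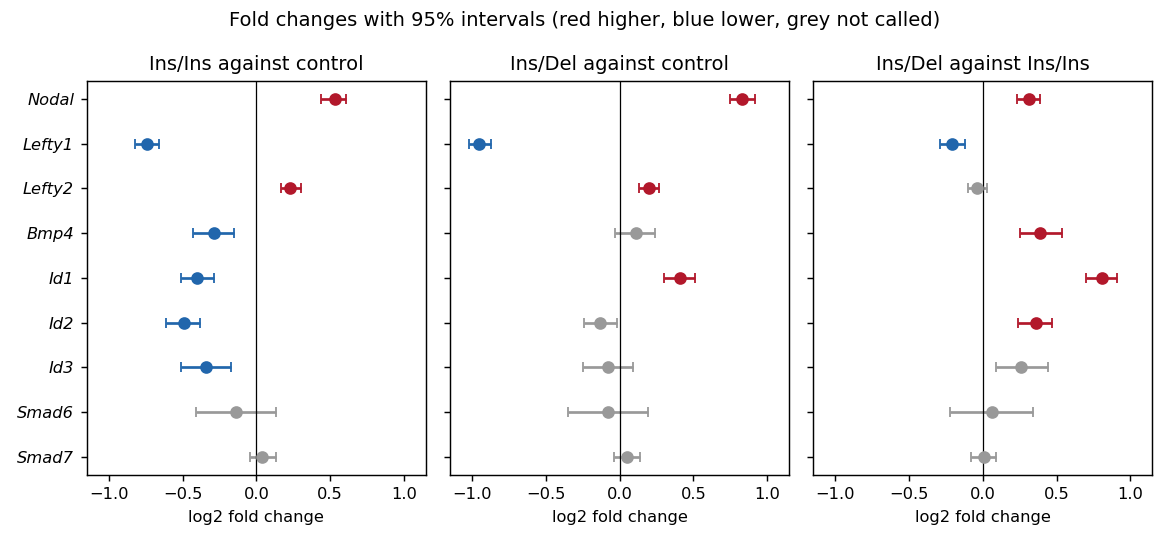
Log2 fold changes (x axis) of the 9 genes (y axis) with 95% intervals in the comparisons of Ins/Ins with the control, Ins/Del with the control, and Ins/Del with Ins/Ins; red points were called higher, blue points lower, and grey points were not called. *Bmp4* and the *Id* genes lie left of 0 in the first panel and right of 0 in the third, and *Id1* changes side between the first panels, from -0.40 to 0.41.

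Another 88 genes of the pathway, listed by role, were read beside the 9, and 64 of them had enough counts for a test. In Ins/Ins, 9 of the 64 were higher and 33 were lower, together 65.6%, with a median log2 fold change of -0.34. In Ins/Del, 10 were higher and 39 lower, together 76.6%, with a median of -0.26. Over all tested genes, 29% were called higher and 29.4% lower in Ins/Ins, and 30.6% and 31.9% in Ins/Del. Between the mutants, 5 of the 64 were called (7.81%), which is near the 10.8% of all tested genes. Paired values below are log2 fold changes in Ins/Ins and Ins/Del, in that order, and both rest on the same control libraries.

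Among the other ligands on the Nodal side, *Inhbb*, which encodes an activin subunit, reached normalized counts of 177, 189, and 159 in the control, 359, 394, and 391 in Ins/Ins, and 422, 442, and 414 in Ins/Del. Its log2 fold change was 1.12 (adjusted p = 8.4e-15) and 1.28 (adjusted p = 6.4e-17). *Inhba*, for another activin subunit, was close to absent from the mutants, with 38 to 43 normalized counts in the control and at most 4 reads in any mutant library. *Tgfb2* had 209, 160.3, and 174 in the control, 7, 9, and 2 in Ins/Ins, and 11, 6, and 14 in Ins/Del, and *Gdf3*, per length the most abundant ligand of this branch in the control, had log2 fold changes of -0.51 and -0.49. Of the 14 other BMP ligands, 10 had too few reads for a test. *Bmp8b* was lower in both lines (-2.16 and -2.29), and *Bmp6* was called in Ins/Del alone, at 0.87 (adjusted p = 0.00518) beside 0.20 (adjusted p = 0.570) in Ins/Ins.

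The proteases that mature these ligands moved apart. *Pcsk6*, which encodes the convertase PACE4, reached normalized counts of 635, 633, and 591 in the control, 1051, 1039, and 1068 in Ins/Ins, and 1386, 1367, and 1403 in Ins/Del. It rose by 0.76 (adjusted p = 1.2e-16) and 1.16 (adjusted p = 5.9e-23), with a difference of 0.40 between the mutants (adjusted p = 1.5e-08), and its lines formed the same 3 steps as those of *Nodal*. *Furin* was lower (-0.70 and -0.92). *Bmp1*, a protease that cleaves the BMP antagonist chordin, was lower too (-3.95 and -4.59), and it lies 24.1 Mb from *Bmp4* within the lower stretch of chromosome 14, in a bin with medians of -1.25 and -1.30.

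Of the 6 type I receptors tested, 4 were lower and 1 higher in each mutant, and of the 5 type II receptors 3 were lower in Ins/Ins and 4 in Ins/Del. *Acvr2b*, an activin receptor, was lower in both (-0.44 and -0.62) and also lower in Ins/Del than in Ins/Ins (-0.18, adjusted p = 4.0e-04). *Acvr1b*, the type I receptor for Nodal and activin, rose by 0.32 and 0.27, while the BMP receptor genes *Bmpr1a* and *Bmpr1b* were lower, at -0.31 and -1.48 in Ins/Ins and -0.23 and -1.04 in Ins/Del. The co-receptor gene *Tdgf1*, which encodes CRIPTO and had the highest level per length of the list, stood at -0.05 in Ins/Ins and 0.06 in Ins/Del, neither of them called, with a difference of 0.11 between the mutants (adjusted p = 0.00251). *Tgfbr3* was not called in either mutant (-0.60 and 0.21) but was higher in Ins/Del than in Ins/Ins by 0.80 (adjusted p = 0.00709), with 46 to 49 against 23 to 31 normalized counts.

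Of the 6 SMADs that carry the signal, *Smad4* (-0.23 in Ins/Ins and -0.25 in Ins/Del), *Smad3* (-0.23 and -0.26), and *Smad5* (-0.19 and -0.18) were lower in both mutants. *Smad2* was called lower in Ins/Del (-0.13) but not in Ins/Ins (-0.09), and *Smad1* was not called (0.10 and -0.02). *Smad9*, at 6 to 8 normalized counts in the control, rose by 1.73 and 1.50. Of the 8 other extracellular antagonists tested, 5 were lower and 1 higher in each mutant. Lower ones included the most abundant, *Fstl1* (-0.49 and -0.37), and *Nbl1* (-2.94 and -2.28), *Fst*, for the activin-binding follistatin (-1.40 and -1.01), and *Nog*, for the BMP-binding noggin (-1.08 and -1.19), whose libraries overlapped between the lines.

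*Smurf2*, which encodes a SMAD ubiquitin ligase, was not called (0.06, adjusted p = 0.239, and -0.00, adjusted p = 0.948). Among regulators inside the cell, *Pmepa1*, a TGF-beta target whose product restrains SMAD signalling, reached normalized counts of 347, 382, and 292 in the control, 1157, 1146, and 1000.1 in Ins/Ins, and 1397, 1316, and 1302 in Ins/Del. It rose by 1.69 and 1.97 and was higher in Ins/Del than in Ins/Ins by 0.28 (adjusted p = 2.9e-04). *Skil*, which encodes a SMAD corepressor, was lower (-0.48 and -0.40), as were *Foxh1*, for a partner of SMAD2 at Nodal targets (-0.36 and -0.34), and *Zeb2*, for a SMAD-interacting repressor (-3.21 and -3.16). Of the 3 Nodal target genes tested in this list, 1 was higher and 1 was lower in each mutant. The higher one was *Eomes*, a Nodal target of the primitive streak, which rose by 0.74 and 0.49. Among BMP targets, *Id4* (-0.53 and -0.83) and *Msx1* (-2.51 and -2.65) were lower in both mutants. Between the mutants neither passed the threshold, at -0.31 (SE 0.18) for *Id4* and -0.14 (SE 0.51) for *Msx1*. *Id3* did not pass it either, whereas *Id1* and *Id2* did. *Msx1* had only 4 to 10 normalized counts in Ins/Ins and 3 to 8 in Ins/Del, and *Id4* had 61 to 66 and 40 to 66. At such counts a missed threshold does not set these genes apart from *Id1* and *Id2*. Adjusted p-values of the called genes lay at or below 0.01 in edgeR's quasi-likelihood test.

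**Figure D4:**
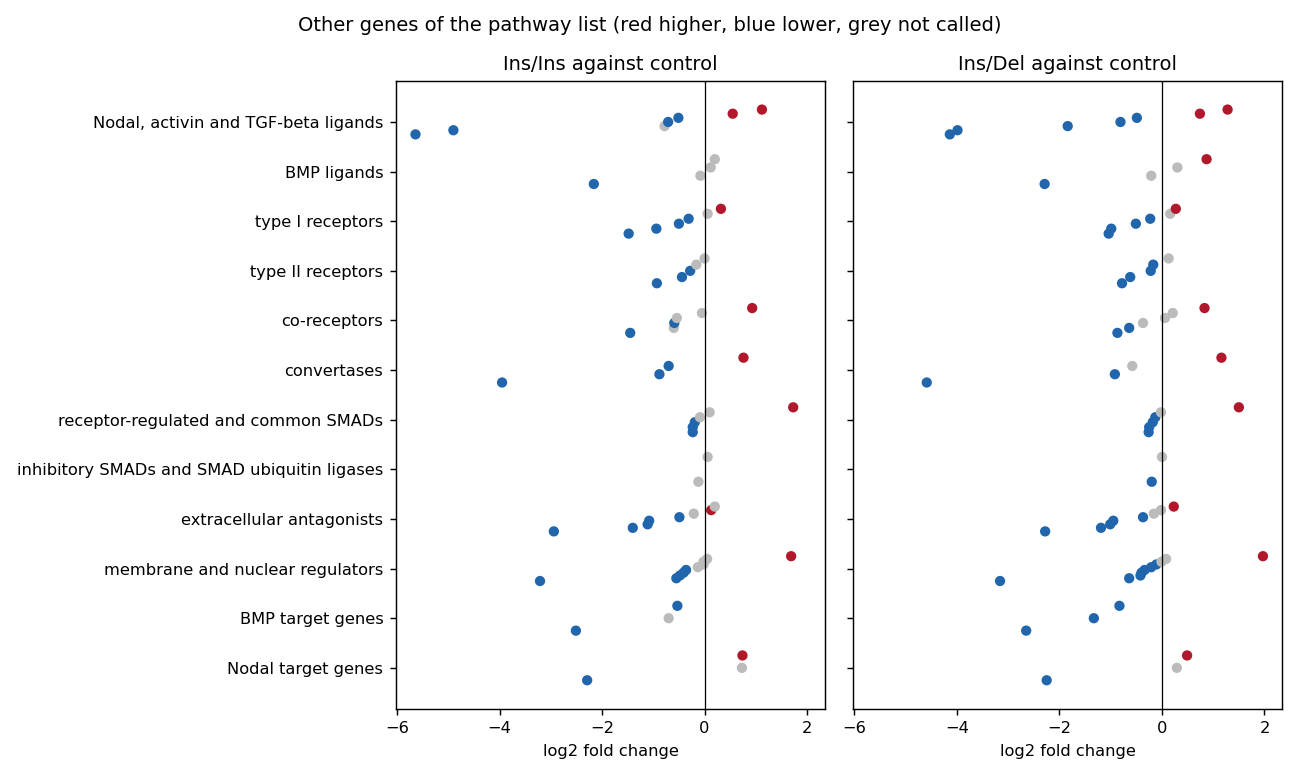
Log2 fold changes (x axis) of the 64 other tested pathway genes by role (y axis) in Ins/Ins (left) and Ins/Del (right) against the control; each point is a gene, red called higher, blue lower, grey not called. Blue points outnumber red ones, 33 to 9 and 39 to 10.

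The genes whose levels over the 9 libraries were most like each member's were sought by Pearson's r of log2 scaled counts, a description without a test, since the libraries fall into the 3 lines. For *Nodal* these were *Ckap4* and *Herpud1* (r = 0.996 each), with 1020 of 12711 other genes at 0.95 or more, and for *Lefty1* *Tpi1* and *Fblim1* (0.997 each), with 1358. *Lefty2* was most like *Exosc4* (0.993) and *Capn1* (0.99). The other members had fewer genes at 0.95 or more, with 168 for *Lefty2* and 0 for each of *Id3*, *Smad6*, and *Smad7*. Since *Smad6* and *Smad7* were not called in any comparison, a low number does not by itself mark a rare pattern. *Id1* had 7 genes at 0.95 or more, led by *Mest* (0.965) and *Col4a1* (0.963), *Id2* had 8, led by *Picalm* (0.978) and *Top1* (0.975), and *Bmp4* had 1, *Elac2* (0.962), followed by *Aspm* (0.95). For *Id3*, *Fam171b* (0.942) and *Pou5f1* (0.929) came first, for *Smad6* *Ube2t* (0.911) and *Siah1a* (0.894), and for *Smad7* *Coa7* (0.938) and *Ccdc12* (0.936).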

How the data were processed

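The deposited values are whole-number counts of reads per gene symbol, without normalization or filtering. Per the methods and labels, the authors prepared Kapa mRNA HyperPrep libraries, aligned paired-end reads of 50 bases to mm10 with STAR 2.7.3, and counted them with HTSeq; its version, annotation, and strand setting are not given in the sources used here, so antisense and duplicated genes carry an uncertainty. Groups were taken from the genotype labels. Scaling was by TMM (factors 0.993 to 1.02) in edgeR 4.0.16 (R 4.3.3). After filterByExpr, a single quasi-likelihood model with a term for each of the 3 lines was fitted, with Benjamini-Hochberg adjustment over 14125 genes. The SE was taken as |log2 fold change| over the root of the F statistic. A normalized count is the count scaled from its own effective library size to the mean one. Exon lengths and positions come from GENCODE M21 (GRCm38, the mm10 build). Pairs of replicates differed by more than counting noise (chi-square per gene of 1.91 to 4.87).

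The 9 genes and the lists were chosen with earlier results of these data known. Pathway genes were named when called and over 2-fold in both mutants, when called with a log2 difference above 0.58 between the mutants, or when most abundant in a role. Others named (*Bmp6*, *Furin*, *Acvr1b*, *Foxh1*, *Eomes*, *Smad1*, *Smad2*, *Smad3*, *Smad5*) illustrate a role and were chosen after their values were seen. A gene that met the rule is not reported here. The older symbol Hfe2 was read as *Hjv*. *Cer1*, *Lhx1*, and 22 other listed genes were below the filter. The fits were tested on simulated data. DESeq2 1.42.0, other scalings, filters, thresholds, sample sets, the replicate block, and each library left out were the alternatives.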

Additional observations from a re-analysis of the deposited data

Results flagged for a closer look

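The mutant lines, each a single clone, differed in the direct test of Ins/Del against Ins/Ins (edgeR, adjusted over all tested genes), for 5 of the 9 genes. The log2 difference was 0.81 for *Id1*, which moved in opposite directions in the lines, 0.39 for *Bmp4*, 0.36 for *Id2*, 0.31 for *Nodal*, and -0.21 for *Lefty1*. Each of the 5 had no overlap between the libraries of the mutants, as did 34.1% of all tested genes.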

How the results depend on the processing

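Over 17 alternatives, some fold changes that were not called crossed 0. *Smad6* ran from -0.17 to 0.04 in Ins/Del against the control and from -0.03 to 0.18 between the mutants. *Smad7* ran from -0.04 to 0.03 between the mutants. All called fold changes kept their direction, and 456 of 459 fold changes of the 9 genes kept their side of the threshold. The exceptions were *Id3* in Ins/Ins without control replicate 1 (-0.28; range -0.42 to -0.28 over libraries left out), and, at a limit of 0.05, *Id2* in Ins/Del (-0.13) and *Id3* between the mutants (0.26), which then passed, so that 2 genes in place of 1 were lower in Ins/Del. With the *Lefty* genes summed, the values set beside *Lefty2* turned to -0.24 in Ins/Ins and -0.34 in Ins/Del, and the difference of *Lefty1* between the mutants no longer passed (-0.10, adjusted p = 0.0273 in edgeR's test), since a single value then stands for both genes. The median of the neighbours of *Bmp4* in Ins/Del was -0.96 with only the 2 groups compared, -0.89 with 10 genes on either side, and -1.01 to -0.92 over libraries left out; between the mutants it ranged from -0.06 to 0.00. Over libraries left out, 2 to 4 other pathway genes were higher in Ins/Del than in Ins/Ins, with 2 in each of the runs without Ins/Ins replicate 1, Ins/Del replicate 2, and Ins/Del replicate 3, and 3 in place of 1 were lower at the limit of 0.05. With Spearman's rho, 3 of the 18 genes named as most alike stayed among the leading ones, so these names are not firm. Beyond what is built into an alternative, the cause was not tested.

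With the replicate number as a block, *Nodal* stayed at 0.53 in Ins/Ins, and no call of the 9 genes changed. No pairing by number was seen over the genes as a whole. Same-numbered libraries had correlations of their deviations between -0.133 and 0.105, beside -0.12 to 0.204 for libraries with different numbers. Pairing in single genes was not tested. *Smad6*, with 83 to 155 reads per library, is limited by depth.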
